A study of Mus musculus with 5 samples.

Results

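The genes described here are 10 of the 34970 gene symbols in the deposited count table: the fibrillar collagen chain genes Col1a1, Col1a2, Col3a1, Col5a1, Col5a2, Col5a3 and Col11a1, the collagen crosslinking enzyme genes Lox and Loxl2, and Serpinh1, which encodes the collagen chaperone HSP47. They were taken by gene symbol from a fixed list, and all 10 were found. The series holds 5 mouse RNA sequencing libraries, 1 per group, all labelled wild type. The MCC label stands for a myeloid-like cell complex; the series title speaks of turning fibroblasts into macrophages. The iPSC library is from induced pluripotent stem cells and the MEF library from mouse embryonic fibroblasts. BM is bone marrow, and PB is blood cells, described in the design text as CD45-positive. The sources used here give no strain or age, no account of how the MCC cells were made, and no number of animals or cultures behind a library.

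Fibrillar collagens are the rope-like proteins that give connective tissue its tensile strength. Fibroblasts are a main source of them, whereas blood cells and pluripotent cells are not known as main sources. Each molecule is a triple helix of alpha chains: Col1a1 and Col1a2 encode the chains of type I collagen, Col3a1 the chain of type III, Col5a1, Col5a2 and Col5a3 those of type V, and Col11a1 a chain of type XI. Type V and type XI chains start and limit fibril growth. HSP47 binds the folded procollagen helix in the endoplasmic reticulum, and lysyl oxidases such as LOX and LOXL2 oxidise lysines outside the cell so that crosslinks can form.

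Total counts lay between 47557598 in MCC, the highest, and 30078366 in PB, the lowest. Levels are given as CPM, read counts out of each 1000000 after edgeR's TMM scaling of the library sizes. With 1 library per group there is no replicate spread and no test: values compare these libraries, and the 95% intervals cover counting error only. A gene is called higher or lower where its CPM ratio is at least 4-fold and the higher library has at least 5 CPM. Genes that reach this minimum in either library are the ones assessed. Marker genes fitted the labels in part. Of 15 fibroblast markers that are not matrix genes, 13 were at 5 CPM or more in MCC, 9 in iPSC, 14 in MEF, 4 in BM and 2 in PB, with summed levels of 5631, 1243, 7128, 862 and 1432 CPM in the same order. The gene Vim (vimentin), which many cell types express, made up 2915, 1125, 4415, 822 and 1263 CPM of these sums, and the surface marker gene Thy1, which lymphocytes also express, 166 CPM in PB. Of 12 macrophage markers 12 were at 5 CPM or more in MCC, 1 in iPSC, 0 in MEF, 12 in BM and 7 in PB, with sums of 14222, 23.5, 7.35, 8552 and 4818 CPM. Of 10 pluripotency markers 1 reached 5 CPM in MCC, 10 in iPSC, 0 in MEF, 1 in BM and 0 in PB. Haemoglobin genes, which mark red cells, took 1.06% of counts in BM and 9.04% in PB. The MCC library thus carried macrophage and fibroblast transcripts together. In bulk RNA, fewer cells of a type and less RNA per cell cannot be told apart.

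MCC and MEF were the libraries rich in these transcripts. The 10 genes together took 2.67% of all counts in MCC, 0.134% in iPSC, 2.58% in MEF, 0.0146% in BM and 0.000864% in PB. All 10 were at 5 CPM or more in MCC and in MEF, 9 in iPSC, 5 in BM and 0 in PB. PB held 260 reads of the 10 genes in all.

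Both type I chains were highest in MEF, with MCC next. Col1a1 was at 6563 CPM in MCC, 169.8 CPM in iPSC, 8923 CPM in MEF, 39.4 CPM in BM and 1.74 CPM in PB. Its partner Col1a2 was at 5548 CPM in MCC, 24.3 CPM in iPSC, 6384 CPM in MEF, 47.0 CPM in BM and 1.77 CPM in PB. In both genes MCC and MEF lay close together and far above the rest, but Col1a2 was lower in iPSC than in BM, whereas Col1a1 was higher in iPSC than in BM. Type III collagen was highest in MCC. Col3a1 was at 11735 CPM in MCC, 166 CPM in iPSC, 1769.7 CPM in MEF, 3.68 CPM in BM and 1.37 CPM in PB. It was the 1 gene of the 10 with its highest level outside MEF.

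Type V and XI chains had lower levels, also per kb of exon, than those of types I and III in MCC. Col5a1, the most widely used type V chain, was at 1423 CPM in MCC, 129 CPM in iPSC, 1901 CPM in MEF, 29.0 CPM in BM and 0.536 CPM in PB. Col5a2, which joins it in the common type V molecule, was at 1223 CPM in MCC, 7.997 CPM in iPSC, 2949 CPM in MEF, 2.87 CPM in BM and 0.234 CPM in PB. The partner chains thus did not follow each other: Col5a2 had the lower share of its MEF level in both MCC and iPSC. Col5a3, a chain with a narrower tissue range, was at 78.2 CPM in MCC, 4.99 CPM in iPSC, 180.4 CPM in MEF, 14.0 CPM in BM and 2.34 CPM in PB. Per kb it was the most abundant of the 10 in PB, and it was higher in BM than in iPSC. Col11a1, known mainly from cartilage, was at 41.9 CPM in MCC, 8.55 CPM in iPSC, 130.3 CPM in MEF, 0.786 CPM in BM and 0.0335 CPM, or 1 read, in PB.

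**Figure D1:**
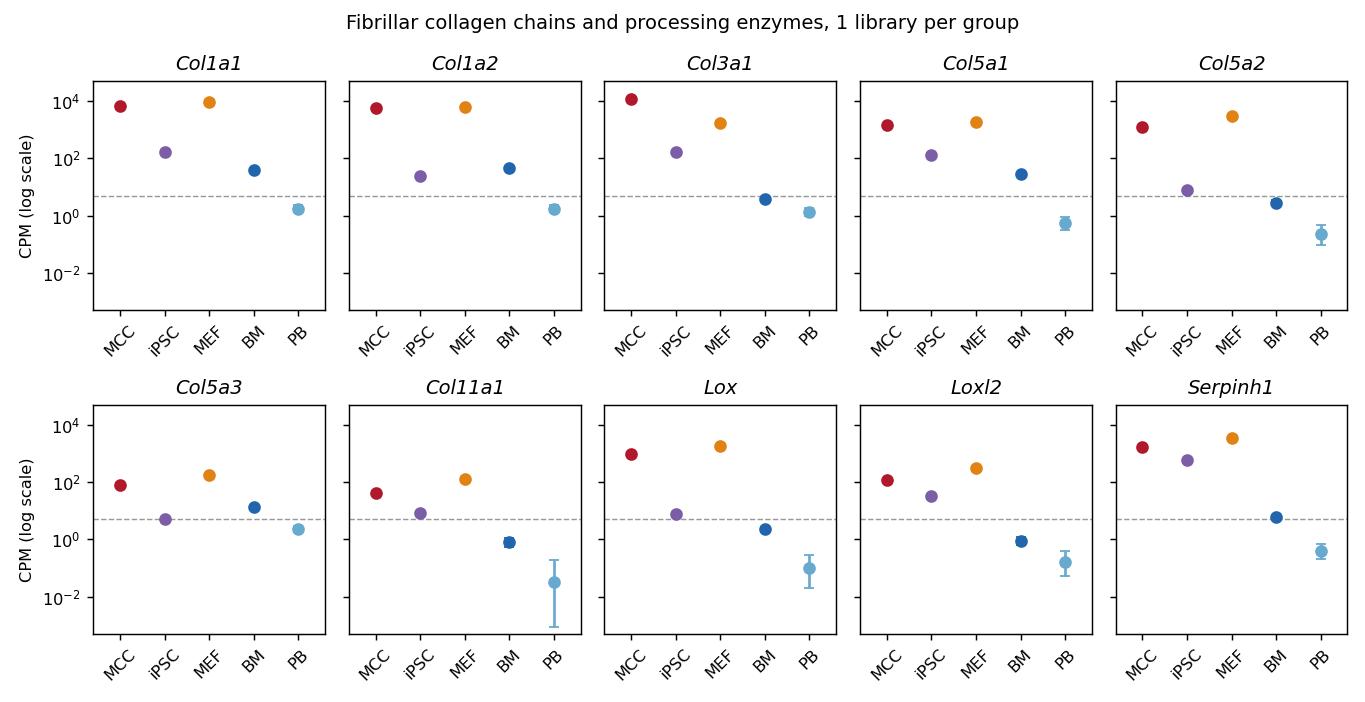
Level of each of the 10 genes in the 5 libraries, as CPM on a log scale. Points are single libraries, bars are exact 95% Poisson intervals of the count and the dashed line marks 5 CPM. MCC and MEF hold the highest levels of every gene, and Col3a1 is the gene with MCC above MEF (11735 against 1769.7 CPM).

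The crosslinking enzymes and the chaperone were also highest in MEF, with MCC next. Lox, the main lysyl oxidase of fibroblasts, was at 984 CPM in MCC, 7.54 CPM in iPSC, 1772 CPM in MEF, 2.26 CPM in BM and 0.100 CPM, or 3 reads, in PB. Loxl2, its family member that also acts on basement membrane collagen, was at 116 CPM in MCC, 33.4 CPM in iPSC, 316 CPM in MEF, 0.884 CPM in BM and 0.167 CPM in PB. The order of this pair turned with the library: Lox was above Loxl2 per kb in MCC, MEF and BM, and Loxl2 was above Lox in iPSC, with 4.44 reads for each read of Lox. Serpinh1 was at 1630.5 CPM in MCC, 571 CPM in iPSC, 3374 CPM in MEF, 6.06 CPM in BM and 0.402 CPM in PB. Per kb of merged exon it was the most abundant of the 10 in iPSC and, by a small margin over Col1a1, in MEF.

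Per kilobase of merged exon, Col3a1 and Col1a1 were the highest members in MCC, ranked 56th and 69th of 33782 genes at 1195 and 999.96 CPM per kb, with Serpinh1 104th at 667 CPM per kb. In iPSC Serpinh1 ranked 160th at 234 CPM per kb, against 1824th for Col1a1 at 25.9 CPM per kb. In MEF Serpinh1 and Col1a1 ranked 26th and 28th, at 1381 and 1359.6 CPM per kb. The chaperone thus stood well above the chains in iPSC, about level with Col1a1 in MEF and below Col3a1 and Col1a1 in MCC. In BM and PB no member ranked above 6896th, the rank of Col1a1 in BM.

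The promoters of 3 chains that differ in pattern over the libraries are shown, taken from RefSeq on build GRCm38.p6, the assembly also known as mm10. Each window runs from 250 bases before to 50 bases after the gene's start, on the gene's strand, as RefSeq places the start, which for Col1a2 lies inside the GENCODE gene. The Col3a1 window lies at chr1:45311288-45311587 on the plus strand, Col1a2 at chr6:4505368-4505667 on the plus strand and Col5a3 at chr9:20815018-20815317 on the minus strand. Capitals mark any match, on either strand, to CCAAT, the letters of the box of that name, to TATAAA, those of a TATA box, or to GGGCGG, those of a GC box.
Col3a1: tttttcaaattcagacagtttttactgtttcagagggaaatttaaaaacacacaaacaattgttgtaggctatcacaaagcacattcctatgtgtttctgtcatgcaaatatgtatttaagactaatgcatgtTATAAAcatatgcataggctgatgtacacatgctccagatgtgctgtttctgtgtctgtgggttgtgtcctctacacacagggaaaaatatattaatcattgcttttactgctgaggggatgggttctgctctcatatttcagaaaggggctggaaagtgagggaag
Col1a2: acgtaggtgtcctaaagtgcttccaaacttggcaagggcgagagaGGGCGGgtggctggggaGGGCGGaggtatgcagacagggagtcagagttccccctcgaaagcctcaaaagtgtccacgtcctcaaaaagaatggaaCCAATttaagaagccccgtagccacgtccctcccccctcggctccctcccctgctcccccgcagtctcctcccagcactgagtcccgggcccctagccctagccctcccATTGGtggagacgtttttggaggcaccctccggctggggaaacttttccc
Col5a3: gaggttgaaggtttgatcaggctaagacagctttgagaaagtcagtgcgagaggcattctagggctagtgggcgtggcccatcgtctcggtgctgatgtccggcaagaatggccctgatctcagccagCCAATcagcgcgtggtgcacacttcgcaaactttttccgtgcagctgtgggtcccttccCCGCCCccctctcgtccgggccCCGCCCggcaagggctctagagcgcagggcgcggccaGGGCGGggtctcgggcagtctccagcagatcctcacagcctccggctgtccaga
The windows differ in make-up. Col3a1 had 37.7% G and C with 0 CG pairs and a TATAAA match, whereas Col1a2 had 61.0% with 13 CG pairs and Col5a3 63.3% with 20. Col1a2 held 2 CCAAT and 2 GGGCGG matches, and Col5a3 1 and 3. Promoter entries were matched for 6 of the 10 genes; Col1a1, Col5a2, Lox and Loxl2 are not shown. The other matched windows had 75.0% G and C for Col5a1 and 62.3% each for Col11a1 and Serpinh1, and Col3a1 was the 1 window of the 6 with a TATAAA match and without GGGCGG. Over all 32851 windows in the RefSeq table the median was 52.7% G and C with 7 CG pairs. CCAAT was in 37.4% of these windows, TATAAA in 13.6% and GGGCGG in 35.7%, either strand counted. No marked match overlaps another in the windows shown.

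The comparison of MCC with MEF set MCC against fibroblasts, the cell type that the series title names as the start. Whether MCC was made from these MEF cells is not stated in the sources used here. Type III collagen was higher in MCC, type I chains and Col5a1 were close, and the other members were lower by less than the 4-fold rule. Of the 10 genes 1 was called higher, beside 8.05% of the 11720 genes assessed, and 0 were called lower, beside 2.71%. At a 2-fold rule 5 were lower. The median log2 ratio was -0.95, against -0.010 over all genes assessed. The higher call was Col3a1 alone, so the share of the group is near that of all genes.

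Col3a1 was 6.63-fold (6.58 to 6.68) higher in MCC than in MEF. Col1a2 was 1.15-fold (1.14 to 1.16), Col5a1 1.34-fold (1.32 to 1.35) and Col1a1 1.36-fold (1.35 to 1.37) lower in MCC. Col5a2 was 2.41-fold (2.39 to 2.44), Col5a3 2.31-fold (2.22 to 2.40) and Col11a1 3.11-fold (2.95 to 3.28) lower. The processing genes all lay on the lower side. Lox was 1.80-fold (1.78 to 1.82), Serpinh1 2.07-fold (2.05 to 2.09) and Loxl2 2.74-fold (2.65 to 2.83) lower in MCC. These intervals are narrow because each value rests on many reads, and they hold no spread between cultures. Fibroblast markers outside the matrix went both ways, with 1 of 14 assessed called higher, the receptor gene Pdgfra at 665 CPM in MCC, against 107 CPM in MEF, and 1 lower, Pdgfrb at 99.8 and 479 CPM. Their median log2 ratio was -0.26. Macrophage markers, called higher for 12 of 12, moved with the comparison, and their part in the collagen differences was not tested. Of these markers 0 reached 5 CPM in MEF, so a lower call was not possible.

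**Figure D2:**
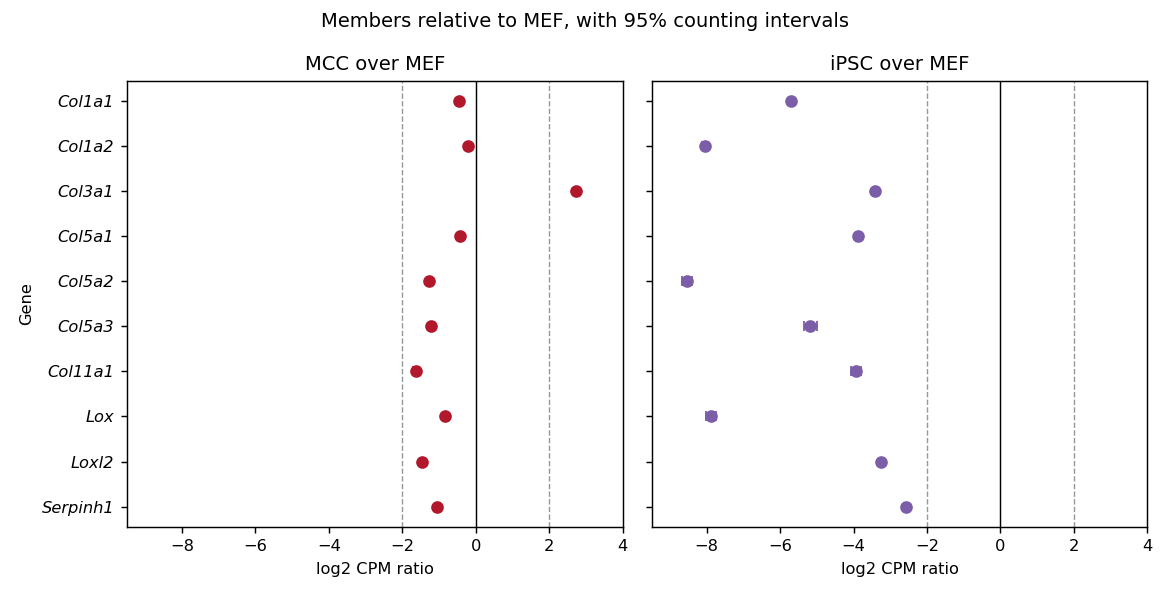
Log2 CPM ratio of each of the 10 genes, MCC over MEF on the left and iPSC over MEF on the right, with 95% counting intervals that are mostly hidden by the points. Dashed lines mark 4-fold; in MCC 9 of the 10 genes lie within them, and in iPSC all 10 lie below.

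Ratios of reads between members of a library need no scaling between libraries, and their change from library to library needs no gene length. Col3a1 had 1.79 reads per Col1a1 read in MCC and 0.198 in MEF, a ratio 9.02-fold (8.93 to 9.10) higher in MCC. Col1a2 per Col1a1 differed little, at 0.845 in MCC and 0.715 in MEF, 1.18-fold (1.17 to 1.19) higher. Against its own partner Col5a1, Col5a2 was 1.80-fold (1.78 to 1.83) lower in MCC and Col5a3 1.73-fold (1.66 to 1.80) lower. Lox and the chaperone gene Serpinh1 were also lower relative to Col1a1. Lox per Col1a1 was 1.32-fold (1.31 to 1.34) and Serpinh1 per Col1a1 1.52-fold (1.51 to 1.54) lower in MCC. Col3a1 and Col5a2 are neighbours on mm10 chromosome 1 that point at each other, at 45311538 to 45349706 on the plus strand and 45374321 to 45503282 on the minus strand, 24.6 kb apart. Col3a1 per Col5a2 was 9.59 in MCC and 0.6002 in MEF, 15.98-fold (15.8 to 16.2) higher, so these adjacent genes stood apart in opposite directions.

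The make-up of the fibrillar chain transcripts was computed as the share of each chain in the reads per kb of merged exon over the 7 chains. Col3a1 was the chain with the largest share in MCC, and Col1a1 in MEF. Col3a1 took 40.5% in MCC, 27.2% in iPSC, 6.88% in MEF, 2.35% in BM and 14.2% in PB. Col1a1 took 33.9% in MCC, 41.6% in iPSC, 51.9% in MEF, 37.5% in BM and 27.0% in PB. Col1a2 was a small part in iPSC, at 15.1% in MCC, 3.14% in iPSC, 19.6% in MEF, 23.7% in BM and 14.5% in PB. The type V chains Col5a1 and Col5a3 took their smallest shares in MCC. Col5a1 took 5.68% in MCC, 24.4% in iPSC, 8.54% in MEF, 21.4% in BM and 6.42% in PB, and Col5a3 0.389%, 1.18%, 1.0105%, 12.8% and 35.04% in the same order. The PB shares rest on between 1 and 70 reads per chain.

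Per kb, Col3a1 was at 1.20 (1.19 to 1.20) times Col1a1 in MCC, 0.653 (0.634 to 0.673) in iPSC, 0.133 (0.132 to 0.134) in MEF, 0.0626 (0.0526 to 0.0740) in BM and 0.527 (0.341 to 0.809) in PB. Col1a2 was at 0.446 (0.444 to 0.449) times Col1a1 in MCC, 0.0755 (0.0711 to 0.0801) in iPSC, 0.378 (0.376 to 0.380) in MEF, 0.631 (0.590 to 0.675) in BM and 0.538 (0.360 to 0.805) in PB. The 3 type V chains together were at 0.307 (0.305 to 0.309) in MCC, 0.646 (0.627 to 0.667) in iPSC, 0.410 (0.408 to 0.412) in MEF, 0.961 (0.899 to 1.03) in BM and 1.63 (1.15 to 2.33) in PB. These levels depend on the gene model: merged exons span 12426 bases for Col1a2 and 6563 for Col1a1, whereas their longest transcripts span 5348 and 5930. With longest transcripts Col1a2 per Col1a1 was 0.937 in MCC and 0.793 in MEF, and Col3a1 per Col1a1 1.91 in MCC and 0.211 in MEF. In other libraries the order of the chains turned with the length used: Col3a1 per Col1a1 was then 1.04 in iPSC, and Col1a2 per Col1a1 1.32 in BM and 1.13 in PB.

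**Figure D3:**
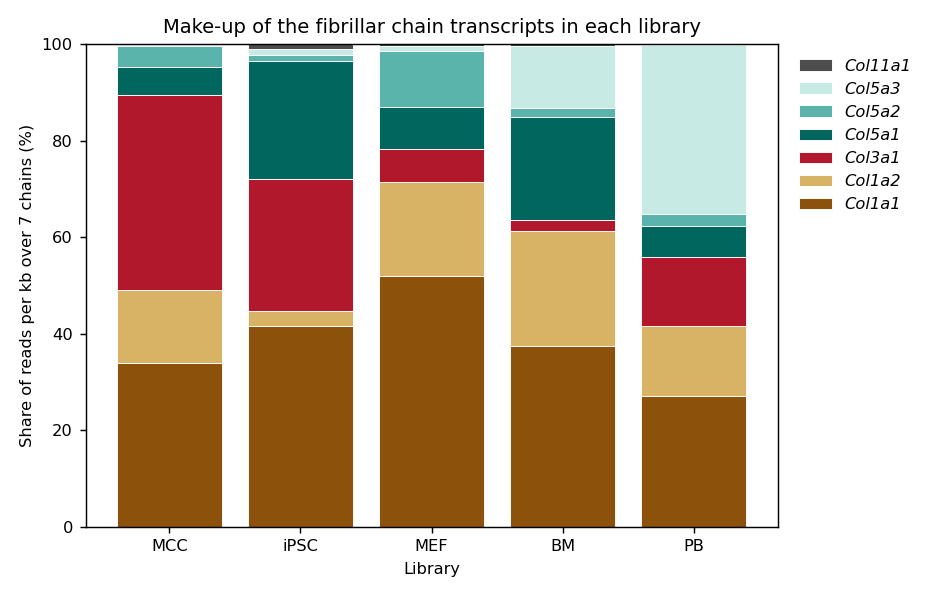
Share of each of 7 fibrillar chains in the reads per kb of merged exon summed over them, in percent, by library. Col3a1 makes 40.5% in MCC and 6.88% in MEF; Col1a2 is a thin band in iPSC, at 3.14%, and Col5a3 takes 35.04% in PB.

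Against iPSC, most collagen genes were far higher in MCC, while the chaperone and Loxl2 differed by less than 4-fold. Of the 10 genes 8 were called higher, beside 11.3% of 12442 genes assessed, and 0 lower, beside 9.77%, with a median log2 ratio of 4.62 against 0.14 over all genes assessed. The largest ratios were those of Col1a2, Col5a2 and Lox, at 229-fold (216 to 242), 153-fold (139 to 169) and 131-fold (118 to 144) higher in MCC. Col3a1 was 70.7-fold (69.2 to 72.2) and Col1a1 38.6-fold (37.8 to 39.5) higher. Lower ratios were seen for the other chains. Col5a3 was 15.7-fold (13.8 to 17.8), Col5a1 11.1-fold (10.8 to 11.3) and Col11a1 4.90-fold (4.41 to 5.45) higher. Loxl2 was 3.45-fold (3.27 to 3.65) and Serpinh1 2.86-fold (2.82 to 2.90) higher in MCC, neither past the rule. Fibroblast markers outside the matrix were called higher in MCC for 11 of 14 and macrophage markers for 12 of 12, and pluripotency markers lower for 10 of 10, and their part was not tested. Only 1 macrophage marker reached 5 CPM in iPSC, and only 1 pluripotency marker did in MCC. For the rest of these 2 lists the direction of a call was fixed. Scaling by total counts ended the call of Col11a1, whose log2 ratio was then 1.90 in place of 2.29, and it turned the split of calls over all genes to 41.9% higher, against 53.7% with TMM. The comparisons of MCC with MEF, iPSC, BM and PB share the MCC library.

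The iPSC library was also set against MEF, since iPSC are reprogrammed cells too. All 10 genes were called lower in iPSC, beside 6.37% of 11931 genes assessed, and 0 were called higher, beside 8.83%, with a median log2 ratio of -4.55 against -0.11 over all genes assessed. The differences were far from even. Col5a2 was 369-fold (335 to 407), Col1a2 263-fold (248.8 to 278) and Lox 235-fold (213 to 260) lower in iPSC. Col1a1 was 52.5-fold (51.4 to 53.7) and Col5a3 36.1-fold (31.9 to 41.0) lower. Col11a1 was 15.2-fold (13.8 to 16.8), Col5a1 14.8-fold (14.4 to 15.2) and Col3a1 10.7-fold (10.4 to 10.9) lower. Least apart were the processing genes Loxl2, 9.45-fold (8.99 to 9.94) lower, and Serpinh1, 5.91-fold (5.84 to 5.99) lower.

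Partner chains were split in iPSC. Col1a2 per Col1a1 was 0.143 reads in iPSC and 0.715 in MEF, 5.005-fold (4.72 to 5.31) lower in iPSC. Col5a2 per Col5a1 was 0.0621 in iPSC and 1.55 in MEF, 25.0-fold (22.6 to 27.6) lower. Other pairs turned the opposite way. Loxl2 per Lox was 24.9-fold (22.3 to 27.8) and Serpinh1 per Col1a1 8.89-fold (8.67 to 9.11) higher in iPSC than in MEF. Of 14 assessed fibroblast markers outside the matrix, 11 were also called lower in iPSC, with a median log2 ratio of -5.20. Their part in the collagen levels of iPSC was not tested. Total-count scaling moved the split over all genes to 69.6% higher, against 58.1% with TMM.

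Bone marrow and blood held these transcripts at low levels, and every member was called higher in MCC than in either. Against BM 10 of 10 were called higher, beside 15.6% of 12427 genes assessed, and 0 lower, beside 13.5%, with a median log2 ratio of 7.21 against 0.11 over all genes assessed. Against PB 10 of 10 were called higher, beside 21.5% of 12545 genes, and 0 lower, beside 15.4%, with a median of 11.75 against 0.38. All 10 reached 5 CPM in MCC, 5 in BM and 0 in PB. A lower call was thus not possible against PB, nor for the members below 5 CPM in BM. Fibroblast markers outside the matrix were called higher for 12 of 13 against BM and 11 of 13 against PB, with medians of 7.83 and 8.70, and macrophage markers for 7 of 12 in each. The part of these cells in the collagen ratios was not tested. Of the 15 fibroblast markers, 4 reached 5 CPM in BM and 2 in PB, so most could not be called lower. The ratio to BM differed widely between chains. Col3a1 was 3187-fold (2716 to 3765), Lox 436-fold (355 to 540), Col5a2 426-fold (355 to 515) and Serpinh1 269-fold (237 to 306) higher in MCC. Col1a1 was 167-fold (159 to 175), Loxl2 131-fold (94.3 to 187) and Col1a2 118-fold (113 to 123) higher. Col11a1, Col5a1 and Col5a3 were least apart from BM, at 53.3-fold (37.6 to 78.2), 49.1-fold (46.4 to 52.1) and 5.60-fold (5.12 to 6.13).

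In PB few reads lay behind the ratios. Lox was 9796-fold (3352 to 47503), Col3a1 8549-fold (6302 to 11913) and Col5a2 5219-fold (2533 to 12983) higher in MCC, on 3, 41 and 7 reads in PB. Serpinh1, Col1a1, Col1a2 and Col5a1 were 4058-fold (2323 to 7855), 3769.8-fold (2875 to 5048), 3127-fold (2390.3 to 4174) and 2656-fold (1636 to 4648) higher. Loxl2 was 690.2-fold (296 to 2127) higher, and Col11a1, with its 1 read in PB, 1251-fold (224 to 49450.3). Col5a3 stood apart at 33.4-fold (26.3 to 42.9) higher.

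BM was set against PB as the pair of native blood sources. Of the 5 members at 5 CPM in either library all 5 were called higher in BM, beside 9.68% of 11377 genes assessed, and 0 lower, beside 6.32%. These 5 reached the minimum in BM and 0 members did in PB, so a lower call was not possible. The median log2 ratio over all 10 members was 3.77 against 0.18 over all genes assessed. Col5a1 was 54.1-fold (33.2 to 94.9), Col1a2 26.5-fold (20.2 to 35.5), Col1a1 22.6-fold (17.2 to 30.4), Serpinh1 15.1-fold (8.49 to 29.6) and Col5a3 5.96-fold (4.64 to 7.75) higher in BM. The other members were below 5 CPM in both. Chain balance differed here for some pairs. Col3a1 per Col1a1 was 0.0936 reads in BM and 0.788 in PB, 8.43-fold (5.41 to 13.1) lower in BM. Col5a3 per Col5a1 was 0.482 in BM and 4.38 in PB, 9.07-fold (5.22 to 15.8) lower in BM. The type I pair Col1a2 per Col1a1 was 1.17-fold (0.795 to 1.73) higher in BM, an interval that holds 1. In PB these chains had between 16 and 70 reads each. Of 8 endothelial markers 4 were at 5 CPM or more in BM and 2 in PB, and of 15 fibroblast markers 4 and 2. Of 4 assessed on each list 2 were called higher in BM, and the fibroblast marker Thy1 was called lower. The list sums were higher in PB. They were 111 CPM in BM and 181 CPM in PB for endothelial markers, with Pecam1 at 61.8 and 136 CPM. For fibroblast markers they were 862 and 1432 CPM, with Vim at 822 and 1263 CPM. Of 8 bone markers 2 of the 3 assessed were called higher in BM. The bone sialoprotein gene Ibsp was at 13.3 CPM in BM, against 0.0670 CPM in PB. The alkaline phosphatase gene Alpl was at 5.57 and 0.636 CPM. Ibsp and Alpl reached 5 CPM in BM only, and they and Pecam1 are named after their values were seen. The third, the transcription factor gene Runx2, had the highest level of the bone list in both libraries and was not called. Runx2 was lower in BM, at 60.5 CPM, against 75.3 CPM in PB. The part of endothelial, fibroblast and bone cells in the collagen values was not tested. PB carries a library code far from the others, and a batch and that group cannot be told apart.

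In the wider collagen pathway most genes also lay within 4-fold in MCC against MEF, and the list medians were below 0. These lists are given by counts and medians, with no test. Over all genes assessed 8.05% were called higher and 2.71% lower in MCC than in MEF. Of 15 assessed genes for hydroxylating and folding procollagen, 0 were called in either direction, with a median log2 ratio of -0.47. P4hb, the disulfide isomerase subunit of prolyl 4-hydroxylase, was at 1228 CPM in MCC, against 1644 CPM in MEF, and Ppib, the prolyl isomerase cyclophilin B, at 208 and 200.4 CPM. Fkbp10, a collagen chaperone of the endoplasmic reticulum, was at 148 CPM in MCC, against 403 CPM in MEF. Of 7 procollagen export genes 0 were called, with a median of -0.71. The KDEL receptor gene Kdelr2 was at 165 CPM in MCC, against 279.9 CPM in MEF, and the COPII coat gene Sec24d at 124 and 203 CPM.

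Among genes for trimming procollagen the difference lay in Tll1. Of 6 assessed 1 was called lower and 0 higher, with a median of -0.38. Tll1, a tolloid-like propeptidase, was at 0.903 CPM in MCC, against 36.8 CPM in MEF, 40.8-fold (29.7 to 57.6) lower. Its relative Bmp1, the main C-propeptidase, was close at 269 and 400.3 CPM, as was its enhancer Pcolce at 724 and 627 CPM. Adamts2, the N-propeptidase of types I and III, was at 294 CPM in MCC, against 98.0 CPM in MEF, 3.004-fold (2.90 to 3.11) higher. Among 3 other lysyl oxidase genes Loxl3 was called lower, at 58.4 CPM in MCC, against 297 CPM in MEF, 5.08-fold (4.87 to 5.31), and the list's median was -0.65. Loxl1, which acts on elastin, was at 364 and 570.1 CPM. Of the remaining fibrillar chains, Col27a1 was at 14.8 CPM in MCC, against 17.9 CPM in MEF and Col24a1 at 2.01 and 6.04 CPM, and neither was called.

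Collagens that coat or link fibrils went both ways. Of 10 assessed 2 were called higher and 1 lower, with a median of -0.46. Col15a1 was at 89.2 CPM in MCC, against 10.3 CPM in MEF, 8.66-fold (7.85 to 9.58) higher, and Col14a1, a fibril-associated collagen, at 24.8 and 5.41 CPM, 4.58-fold (3.97 to 5.30) higher. Col8a2, of the network-forming type VIII, was 4.87-fold (3.72 to 6.47) lower at 1.504 and 7.33 CPM. The microfibril chains Col6a1 and Col6a2 were at 1065 and 750.5 CPM in MCC, against 807 and 557 CPM in MEF. Col6a3 and the fibril-associated Col12a1 were at 448 and 659 CPM in MCC, against 1084 and 1104 CPM in MEF. Of 14 fibril assembly partners 3 were called higher and 1 lower, with a median of -0.97. Tnxb (tenascin X), which binds fibrils, was 18.03-fold (14.5 to 22.7) higher, at 35.9 CPM in MCC, against 1.99 CPM in MEF. The proteoglycan genes Dcn and Lum were at 2152 and 543 CPM in MCC, against 141 and 18.8 CPM in MEF. Fmod (fibromodulin), of the same proteoglycan family, was lower at 7.198 and 41.2 CPM. Fn1 (fibronectin) was at 1704 CPM in MCC, against 6019 CPM in MEF, and Sparc, a collagen-binding glycoprotein, at 3986 and 5164 CPM.

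Genes for breaking down and taking up collagen had a median of -0.85, with 1 of 11 assessed called higher and 1 lower. The higher one was Mrc1, the macrophage mannose receptor, which is on the macrophage list too, at 690 CPM in MCC and 0.0925 CPM, or 4 reads, in MEF. The lower one was the collagenase gene Mmp13, 4.22-fold (3.47 to 5.16) lower at 2.92 and 12.3 CPM. The gelatinase gene Mmp2 was at 442 CPM in MCC, against 262 CPM in MEF, Mmp14, a membrane-bound collagenase, at 261 and 559 CPM, and Mrc2, the collagen uptake receptor of fibroblasts, at 198 and 387 CPM. Contractile genes of myofibroblasts and smooth muscle were called lower in MCC for 7 of 7 assessed, beside 2.71% of all genes assessed. Their median was -4.85. Of the 8 listed, 7 reached 5 CPM in MEF and 2 in MCC, and those below 5 CPM in MCC could not be called higher. The smooth muscle actin gene Acta2 gave 162 CPM in MCC but 5086 CPM in MEF, and the part of these cells in the collagen differences was not tested.

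**Figure D4:**
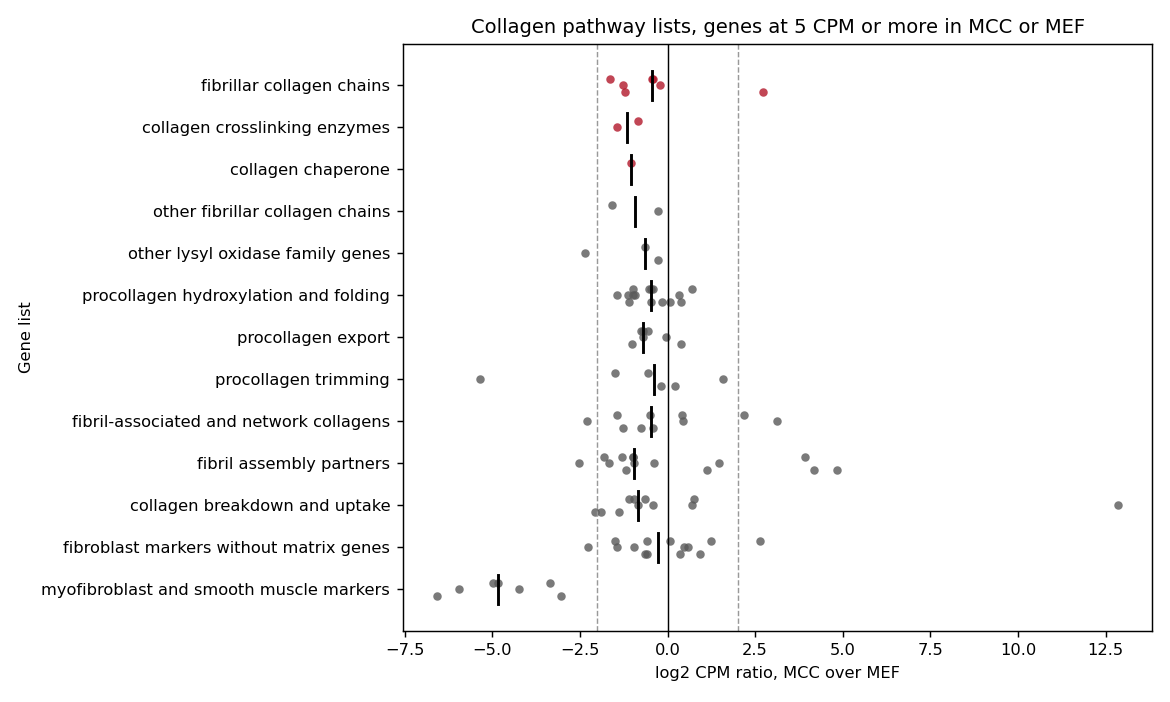
Log2 CPM ratio, MCC over MEF, of each gene at 5 CPM or more in MCC or MEF, by list, with the 10 genes described here in red. Black bars are list medians and dashed lines mark 4-fold; the medians of the lists other than the myofibroblast one lie between -1.15 and -0.26, and the far right point is Mrc1.

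Against iPSC 3 of 15 hydroxylation and folding genes and 0 of 7 export genes were called higher in MCC, and 0 lower, with medians of 1.05 and 0.62. Against BM 11 of 15 and 2 of 7 were called higher, with medians of 3.96 and 1.46, and against PB 11 of 15 and 4 of 7, with medians of 4.30 and 2.05. Over all genes assessed 11.3% were called higher in MCC against iPSC, 15.6% against BM and 21.5% against PB. Fibril-associated and network collagens were called higher for 7 of 10 against iPSC (1 lower), 8 of 9 against BM and 9 of 9 against PB. Assembly partners were called higher for 8, 12 and 11 of 14 in the same order. Of the fibril-associated and network collagens 2 reached 5 CPM in BM and 0 in PB, so a lower call against PB was not possible. Among the remaining fibrillar chains 1 was called lower in MCC than in BM and PB, Col11a2, chosen here after its values were seen. It was at 2.06 CPM in MCC, 0.765 CPM in iPSC, 1.46 CPM in MEF, 11.4 CPM in BM and 23.6 CPM in PB.

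Likeness of pattern was measured as the root mean square difference of the centred log2(CPM + 1) values over the 5 libraries. It was taken among 12988 genes at 5 CPM or more in some library, with Gm-number and Rik symbols left out. The measure is a description over 5 points that share their libraries. For Col1a1 the nearest genes were Col5a1, Col12a1 and Bgn (biglycan), with differences of 0.83, 0.90 and 0.91, and Lox ranked 5th and Col1a2 6th. Col3a1 ranked 23rd for Col1a1. For Col3a1 the nearest were the imprinted RNA gene H19 (0.93), Spp1 (osteopontin, 1.21) and the matrix gene Fbln2 (1.34), and the nearest member was Col1a1, ranked 8th. H19 was at 4317 CPM in MCC, 21.2 CPM in iPSC, 1374 CPM in MEF, 0.417 CPM in BM and 0.703 CPM in PB. For Col5a3 the nearest were Tmem119 (0.44), Ednra, the endothelin receptor (0.51), and Runx1t1 (0.53), and no member ranked above 294th, the place of Col11a1. Tmem119 was at 91.0 CPM in MCC, 4.78 CPM in iPSC, 120.3 CPM in MEF, 6.80 CPM in BM and 0.904 CPM in PB.

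By position, the strand setting of the counting is not given, so overlapping genes bear on 4 members. Of the exon bases of Loxl2 5.57% are shared with an opposite-strand gene, of Col5a1 2.50% and of Lox 0.628%, and 1.44% of those of Col3a1 are shared with a same-strand gene. On mm10, per GENCODE M21, Col1a1 lies on chromosome 11 at 94936224 to 94953042, Col1a2 on chromosome 6 at 4504814 to 4541544, and Col5a1 on chromosome 2 at 27886425 to 28039514. Col5a3 lies on chromosome 9 at 20770050 to 20815067, Col11a1 on chromosome 3 at 114030540 to 114220718, Loxl2 on chromosome 14 at 69609068 to 69695834, Serpinh1 on chromosome 7 at 99345376 to 99353239 and Lox on chromosome 18.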

How the data were processed

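The table of whole-number read counts per gene symbol was used as the authors deposited it, not normalized. The submitters' processing notes name the aligner STAR, the counter featureCounts and the build mm10; the versions, annotation, strand setting and filters are not given. Trizol extracts were enriched for polyA RNA, per the labels' protocols. The 5 columns were matched to the libraries by name, and 0 were unused. The members, and the 16 other gene lists (156 symbols, 152 in the table), were chosen with earlier results of these data known.

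CPM used TMM factors from edgeR 4.0.16 in R 4.3.3 over all 5 libraries. Ratios set counts under 3 to 3, except where a ratio on 1 read is given with its interval, and carry exact conditional binomial 95% intervals; ratios of read ratios carry Wald intervals of the log odds ratio. Reads are not independent molecules. Python 3.11.15 with numpy 2.4.6, pandas 2.3.3, scipy 1.17.1 and matplotlib 3.10.9 did the rest. Calls were made over the whole table and were tested on simulated data. Gene lengths came from GENCODE M21 (33782 symbols matched once). Named genes were the members, the 2 genes of each list highest in MCC and in MEF, list genes called in MCC over MEF where a list had 6 or fewer, and the 3 genes nearest in pattern to Col1a1, Col3a1 and Col5a3. The alternatives were DESeq2 1.42.0 size factors, total counts, total counts without the 10 most abundant genes of each library, mitochondrial genes and haemoglobins, no minimum or 20 CPM, the counting bound, a 2-fold rule, 1 added count and longest transcripts.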

Additional observations from a re-analysis of the deposited data

How the results depend on the processing

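Of 84 counts of members called under the alternatives, 81 stayed within 1.5 times. The others were 5 genes lower in MCC than in MEF at a 2-fold rule, against 0, and, for BM over PB, 9 higher without a minimum level and 3 at 20 CPM, against 5. Of 24 medians 18 stayed within the counting interval and 6 did not. Of 180 ratios of single members 76 moved beyond their narrow counting intervals under another scaling, as did 13 of 15 chain ratios under the other length. For MCC over MEF the median log2 ratio was -0.97 with DESeq2 size factors and -0.98 with total counts, for MCC over iPSC 4.23 with total counts and 4.29 with total counts without the most abundant genes, and for iPSC over MEF -4.19 and -4.23. No member's ratio changed direction under the 3 scalings. Scaling shifted every log2 ratio together, by up to -0.39 for MCC over iPSC, 0.36 for iPSC over MEF, -0.28 for MCC over PB, -0.18 for BM over PB and -0.14 for MCC over BM, so members are best read beside the median of all genes. Total counts without the most abundant genes gave 43.0% of calls higher for MCC over iPSC and 68.8% for iPSC over MEF, and the log2 ratio of Col11a1 for MCC over iPSC was then 1.96.

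With longest transcripts, Col1a2 per Col1a1 was 0.937 in MCC, 0.159 in iPSC, 0.793 in MEF, 1.32 in BM and 1.13 in PB. Col3a1 per Col1a1 was 1.91, 1.04, 0.211, 0.0997 and 0.840 in the same order, and type V chains per Col1a1 0.331 in MCC, 0.605 in iPSC and 0.466 in MEF. The lengths alone give this change, and they turn the order of Col3a1 and Col1a1 in iPSC and of Col1a2 and Col1a1 in BM and PB. Depth limits PB most: a floor of 3 counts is 0.100 CPM there. No paired analysis was possible because each group has 1 library.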

Other observations

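Markers of other collagen-making tissues were mostly at trace levels in the libraries rich in collagen. Of 10 cartilage markers 1 reached 5 CPM in MCC and 1 in MEF, in both cases the transcription factor gene Sox9, at 33.5 and 19.9 CPM, while the cartilage proteoglycan gene Acan had 0 reads in MCC, 8.97 CPM in iPSC and 0.717 CPM in MEF. Col2a1, the cartilage fibrillar chain, was at 0.162 CPM in MCC, 3.37 CPM in iPSC and 0.324 CPM in MEF. Of 8 bone markers 1 reached 5 CPM in MCC and 1 in MEF, the transcription factor gene Runx2 at 16.2 and 37.6 CPM. Acan and Col2a1 are named after their values were seen.

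Tendon markers differed between MCC and MEF, with 3 of 4 assessed lower and 1 higher in MCC. Over all genes assessed 2.71% were lower and 8.05% higher. Scx, the tendon transcription factor, was at 0.579 CPM in MCC, against 9.41 CPM in MEF, Tnmd (tenomodulin) at 2.55 and 21.5 CPM, and Fmod, counted on this list too, at 7.198 and 41.2 CPM. Kera (keratocan) was at 5.35 CPM in MCC with 0 reads in MEF, at least 77.1-fold higher against a floor of 3 counts per library. Scx and Tnmd reached 5 CPM in MEF only and Kera in MCC only, so the direction of these calls was fixed. Of 8 endothelial markers 1 was assessed and called higher in MCC than in MEF, the angiopoietin receptor gene Tek at 7.41 and 1.34 CPM. Tek reached 5 CPM in MCC only, and the other endothelial markers did so in neither library. The median level of the endothelial list was 0.312 CPM in MCC and 0.786 CPM in MEF. Of 10 pluripotency markers 1 was assessed and called higher, Sox2 at 15.1 and 0.439 CPM. Sox2 too reached 5 CPM in MCC only. Of the 10, 6 had 0 reads in MCC, and the list's median level was 0 CPM in MCC and 0.0925 CPM in MEF.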
